A study of Rattus norvegicus with 24 samples.

Results

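Cholesterol synthesis enzymes were followed in thoracic propriospinal (TPS) neurons, the spinal interneurons whose axons link the thoracic cord with the lumbosacral cord, after those axons had been cut. The set was named as 8 enzymes, Hmgcs1, Idi1, Fdps, Fdft1, Sqle, Lss, Cyp51 and Dhcr7, and it was chosen because members were lower 1 week after transection than in the 4-day controls, so the values of that comparison selected the genes and are described here without a test. Members were found by gene symbol in the platform annotation, with the brightest probe to be kept where a gene had several. In all, 6 of the 8 had a named probe, 1 each, among 14324 genes with a probe of 1 symbol, and all 6 passed the filter on low intensity. The expression of Hmgcs1 and Fdps was not analysed here.

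The RNA came from adult female Long-Evans rats, 77 ± 10 days old, that received Fluorogold in the lumbosacral enlargement and, in the transected groups, a complete transection at T9 1 week later. Labelled neurons were cut out of the T5 to T8 cord by laser microdissection, and amplified RNA from each animal was hybridised to 1 Affymetrix Rat Gene 1.0 ST array. Of the transected animals, 4 were taken at 3 days, 4 at 1 week, and only 2 each at 2 weeks and at 1 month, and tracer-injected rats without transection at control times labelled 4 days, 2 weeks and 1 month (n = 4 each); the study's methods count the control intervals from the tracer injection, so they run longer than the labels. The neurons at each time after transection were those still present and carrying tracer, and neurons lost before then were not sampled. The study proposes that changes after 3 days may come from the neurons that survived, which takes in the 1-week group. All animals, controls included, carried the tracer. By the study's group table, the 1-week animals were taken 2 weeks after labelling, and the controls compared with them 10 days after it. The 1-week comparison was therefore not matched in time since labelling.

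Cholesterol is built from acetyl-CoA through mevalonate, the isoprenoid diphosphates, squalene and lanosterol. Nearly all of its enzymes are transcribed under SREBP2, a membrane-bound transcription factor that the escort protein Scap carries out of the endoplasmic reticulum when sterols are low and that Insig proteins hold back when sterols are plentiful. The brain and spinal cord make their own cholesterol because lipoproteins do not cross the blood-brain barrier, and adult neurons take part of theirs from astrocytes on ApoE particles. Membrane growth at an axon tip needs sterol, and myelin holds most of the sterol of the cord.

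Promoters of SREBP2 target genes classically pair a sterol response element with sites for NF-Y, which binds CCAAT, and Sp1, which binds GGGCGG. The promoter windows of 4 measured members are shown from 130 to 21 bases before the RefSeq start (build GRCr8, 5′ to 3′ along the gene), with CCAAT and GGGCGG on either strand in capitals, because they carry the letters that the members do and do not share.
Idi1 (chr17:66547545-66547654, minus strand): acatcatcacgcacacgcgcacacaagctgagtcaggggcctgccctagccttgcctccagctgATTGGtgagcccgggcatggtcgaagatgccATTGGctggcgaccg
Lss (chr20:12118251-12118360, minus strand): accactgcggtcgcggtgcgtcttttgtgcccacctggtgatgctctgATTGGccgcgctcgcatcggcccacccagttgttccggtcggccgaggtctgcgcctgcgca
Cyp51 (chr4:30991563-30991672, plus strand): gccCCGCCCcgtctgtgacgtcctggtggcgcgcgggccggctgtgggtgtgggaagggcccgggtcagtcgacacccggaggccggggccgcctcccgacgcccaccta
Dhcr7 (chr1:208444304-208444413, plus strand): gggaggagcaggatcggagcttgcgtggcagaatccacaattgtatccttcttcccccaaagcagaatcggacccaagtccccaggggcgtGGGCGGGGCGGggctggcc
RefSeq's promoter table, which holds 300 bases around each start, matched 6 of the 8 named enzymes and had no entry for Sqle or Fdft1. Over the full 300 bases, CCAAT occurred in 4 of the 6 (Hmgcs1, Idi1, Fdps and Lss) against 37.5% of all 33469 promoters, and GGGCGG in 5 of the 6 (all but Idi1) against 33.1%; among the 4 with a measured probe, whose windows are shown, CCAAT was in Idi1 and Lss only. In Dhcr7 a pair of GGGCGG matches overlapped. The letters CACNCCAC, one form of a sterol response element, were in 0 of the 6 and in 5.80% of all promoters; other forms were not searched. These are matches of letters in a window, not measured binding.

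Neuronal markers checked the label of the samples. All 12 neuronal markers had a probe, and the brightest, Snap25, stayed between 12.10 and 12.41 on the log2 intensity scale over the 24 arrays. RNA of other cells was present too, since Ctss (microglia) ranged from 10.24 to 11.43, Mbp (oligodendrocytes) from 10.89 to 11.48 and the astrocytic Slc1a2 from 10.69 to 11.46. Some markers varied more, with C1qc (microglia) from 8.1 to 11.13 and the astrocytic Gfap from 8.59 to 11.55, while the astrocytic S100b stayed between 10.93 and 11.48. Gfap also differed between uninjured groups, by -1.31 (SE 0.37) in the 2-week against the 4-day controls. Microglial markers moved with injury: all 11 were higher at each transected time than in the controls compared with it. Their summed intensity was 3145 to 7356 in the 4-day controls, 8645 to 11814 at 3 days and 6729 to 8984 at 1 week. At the later times it was 3631 to 4385 in the 2-week controls, 5570 to 6638 at 2 weeks, 3455 to 4266 in the 1-month controls and 5163 to 5347 at 1 month. What these cells contributed to the enzyme levels was not tested, and in such samples fewer cells of a type and less RNA per cell cannot be told apart. Array quality weights were lowest for 4-day controls 3 and 4 (0.328 and 0.477).

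At 1 week, all 6 measured enzymes lay below the 4-day controls, by 0.19 to 0.49 on the log2 scale, with a median of -0.284 against -0.000636 over all 23240 tested probes. No probe of the whole array was called lower in that comparison (0% of probes at an adjusted p under 0.05, limma), and the values are given because they selected the members. Every value is log2 of the deposited intensity, arrays are named by the replicate numbers of the labels, errors are standard errors (SE) from a limma fit over all 24 arrays, and n is 4 a group unless stated.

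Cyp51, the cytochrome P450 that removes the 14α-methyl group of lanosterol, stood lowest against its controls. It read 9.37, 9.39, 9.31 and 8.88 on 1-week arrays 1, 2, 4 and 5 and 9.61, 9.55, 9.80 and 9.93 in 4-day controls 1 to 4. The groups did not overlap, and Cyp51 was the 1 member of 6 for which that held, while 1.04% of all probes had every 1-week array below every 4-day control. The difference was -0.49 (SE 0.12, a ratio of 0.713) and came to -0.37 with its lowest array, number 5, left out.

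Upstream of Cyp51, Idi1 isomerises isopentenyl diphosphate and so feeds every later isoprenoid. Its levels were 7.47, 7.43, 7.07 and 7.21 at 1 week against 7.29, 7.32, 7.96 and 7.84 in the 4-day controls. The 1-week arrays overlapped controls 1 and 2 and lay well under controls 3 and 4, and the difference was -0.31 (SE 0.18). Against controls 1 and 2 alone, a setting chosen after seeing the data, it was -0.01.

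Fdft1, squalene synthase, commits farnesyl diphosphate to sterols. Its 1-week values were 9.04, 9.45, 9.12 and 8.89, and 3 of these 4 were below the lowest 4-day control (9.33, 9.30, 9.55 and 9.51). The difference was -0.30 (SE 0.11).

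Sqle, squalene epoxidase, is a rate-limiting enzyme of the later pathway. It read 9.25, 9.42, 9.46 and 8.90 at 1 week and 9.49, 9.36, 9.62 and 9.55 in the 4-day controls. The groups overlapped, array 5 was the lowest, and the difference of -0.25 (SE 0.12) was -0.13 without that array.

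Lss, lanosterol synthase, closes the sterol rings. Its levels were 6.36, 6.67, 6.69 and 6.41 against 6.66, 6.60, 6.91 and 6.71, with overlap and a difference of -0.19 (SE 0.14).

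Dhcr7 reduces 7-dehydrocholesterol to cholesterol in the last step. It read 5.90, 5.98, 5.65 and 5.90 at 1 week against 5.95, 6.50, 6.05 and 6.0 in the 4-day controls, so that 3 of 4 arrays were below every control. Control 2 was far above the other three controls, and the difference of -0.27 (SE 0.11) was -0.14 without it.

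**Figure D1:**
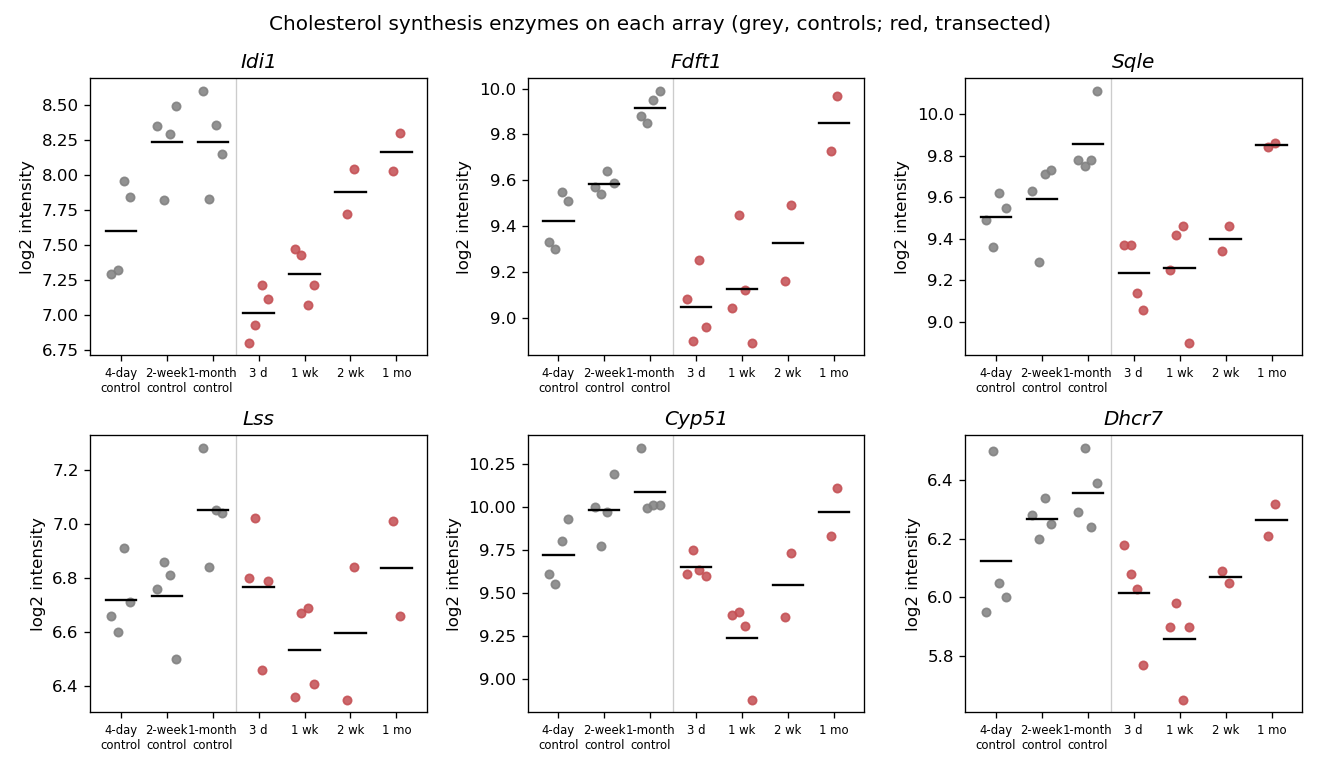
Log2 intensity (y axis) of the 6 measured enzymes on every array, by group (x axis); grey points are controls, red points are transected animals and black bars are group means. Cyp51 at 1 week lies below all 4-day controls, and the controls themselves are higher at 1 month than at 4 days for all 6 enzymes.

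At 3 days, which shares the 4-day controls with the selecting comparison and is likewise described without a test, the order of the members was another. Idi1 was lowest, with 6.80, 6.93, 7.21 and 7.11 on arrays 1 to 4, all under the lowest control. Its difference was -0.60 (SE 0.18). Fdft1 followed, with 9.08, 8.90, 9.25 and 8.96, again without overlap and a difference of -0.37 (SE 0.11). The groups were thus apart for 2 of 6 members, against 2.76% of all probes. Sqle read 9.37, 9.37, 9.14 and 9.06, a difference of -0.27 (SE 0.12), with overlap.

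Against the 4-day controls Cyp51 did not share the early low. Its 3-day arrays, at 9.61, 9.75, 9.63 and 9.60, sat inside the range of those controls, with a difference of -0.07 (SE 0.12). All 4 lay above every 1-week array. Lss differed by 0.05 (SE 0.14) and Dhcr7 by -0.11 (SE 0.11), both with overlap, and the sign of each turned when 1 array was left out, to -0.04 for Lss without 3-day array 2 and to 0.01 for Dhcr7 without 4-day control 2. Against 4-day controls 1 and 2 alone, a setting chosen after seeing the data, Cyp51 came to 0.07 and Lss to 0.14. Idi1 came to -0.30, Fdft1 to -0.27, Sqle to -0.19 and Dhcr7 to -0.22. The median over the 6 members was -0.192 at 3 days.

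The uninjured animals were not level over time. From the 4-day to the 1-month controls all 6 members were higher, by 0.23 (Dhcr7) to 0.63 (Idi1), with a median of 0.358 against -0.0105 over all tested probes. Fdft1 climbed from 9.42 to 9.58 and 9.92 in the means of the 4-day, 2-week and 1-month controls, and Idi1 from 7.61 to 8.24 and 8.24. Between the 2 later control groups, neither of which took part in the selection, 0 of 6 members were called higher by limma after Benjamini-Hochberg adjustment over all tested probes, against 6.18% of probes. Fdft1 came nearest, at 0.33 (SE 0.11, adjusted p = 0.0502). Every 1-month control of Fdft1 (9.88, 9.85, 9.95 and 9.99) lay above every 2-week control (9.57, 9.54, 9.64 and 9.59). Fdft1 passed the threshold under 6 other settings, each time as the 1 member called. Over the 8 other settings, 1117 to 5404 probes were called in either direction, the most with array quality weights. The passes alone therefore do not set Fdft1 apart from other probes. Unadjusted p-values under 0.05 were found for Fdft1 (0.00514), Lss (0.0277) and Sqle (0.0413). Of all probes, 6.18% were called higher there even after adjustment, so these unadjusted values alone do not set the enzymes apart. Markers of other cells that were called higher in the same comparison are given below. Against the 2-week controls in place of the 4-day controls, the 1-week differences ran from -0.20 (Lss) to -0.94 (Idi1); the 1-week arrays are those that chose the members, so these values are a description only.

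**Figure D2:**
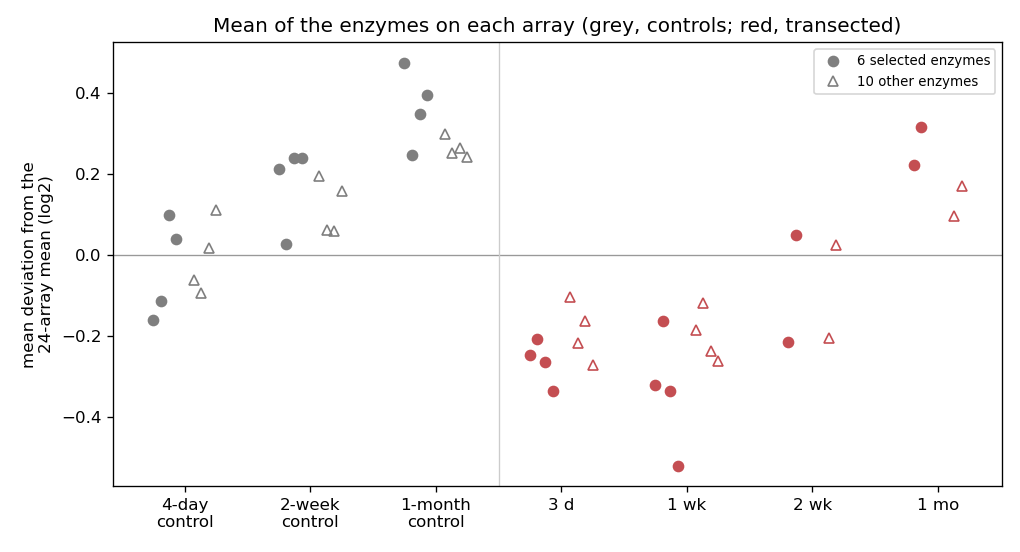
Mean deviation of the enzymes from their own 24-array means on each array (y axis, log2), by group (x axis): filled circles, the 6 selected enzymes; open triangles, the 10 other enzymes of the pathway; grey, controls; red, transected. The 6 enzymes average -0.035, 0.179 and 0.365 in the 4-day, 2-week and 1-month controls, and in transected animals -0.265 at 3 days, -0.336 at 1 week, -0.085 at 2 weeks and 0.268 at 1 month.

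Arrays that the selection did not use allowed tests. At 2 weeks (n = 2 against 4), all 6 members were lower than the 2-week controls, by 0.14 to 0.44, with a median of -0.229 against -0.00183 over all probes. None was called lower by limma after adjustment, as was true of every probe on the array (0%); the smallest adjusted p of a member was 0.801. Cyp51 read 9.36 and 9.73 against 10.00, 9.77, 9.97 and 10.19 in the controls, with no overlap. Its difference was -0.44 (SE 0.15, unadjusted p = 0.00914, adjusted p = 0.801) and it was the 1 member of 6 with an unadjusted p under 0.05, beside 1229 of the 23240 probes. Fdft1, at 9.16 and 9.49, and Dhcr7, at 6.09 and 6.05, also lay under all their controls. The 3 of 6 members without overlap compare with 7.82% of all probes. Transected array 3 was the lower of the pair for every member but Dhcr7, and the median was -0.404 with that array alone. With array 4 alone it was -0.165, and Cyp51 was at -0.25, Fdft1 at -0.09, Idi1 at -0.20 and Lss at 0.11.

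At 1 month (n = 2 against 4), differences were small. The members lay between -0.22 (Lss) and -0.01 (Sqle), with a median of -0.084, and the widest 95% interval, that of Idi1, ran from -0.53 to 0.38. Sqle, for example, read 9.84 and 9.86 in the transected animals against 9.78, 9.75, 9.78 and 10.11 in the controls, with overlap. No member or probe was called lower (0%), and 0 of 6 members had an unadjusted p under 0.05, beside 799 probes. For the mean of the 2-week and 1-month differences the members ranged from -0.28 (Cyp51, SE 0.11, unadjusted p = 0.018, adjusted p = 0.883) to -0.10 (Sqle), again with 0% of probes called lower. Whether the 2 differences differed from each other was tested as an interaction, and no member was called. The 95% intervals of the interaction were wide, from -0.77 to 0.13 for Cyp51 and from -0.93 to 0.36 for Idi1. The test therefore does not show that the 2 differences were alike. The methods' t-test, adjusted the same way, called 0 members at 2 weeks and 0 at 1 month. At 1 month it called only 2 probes of the whole array.

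The 3-day arrays could be tested against the 2 later control groups, which left out the 4-day controls. Here 5 of 6 members were called lower at an adjusted p under 0.05, against 5.96% of all probes, with a median of -0.437. Because uninjured animals were also higher at later times, injury and time cannot be told apart in this comparison. Median array intensity differed too, at 78.6 to 80.7 in the 2-week and 73.6 to 75.6 in the 1-month controls. Its part in the differences between control times was not tested. Idi1 differed most, with a mean of 7.01 at 3 days against 8.24 (log2 difference -1.23, SE 0.15, a ratio of 0.427, limma adjusted p = 1.7e-05). Its 3-day arrays lay under all 8 controls, of which the lowest was 7.82. Fdft1 followed at -0.70 (SE 0.092, adjusted p = 2.85e-05), and Sqle at -0.49 (SE 0.11, adjusted p = 0.00342), the latter with some overlap. Cyp51 differed by -0.39 (SE 0.11, adjusted p = 0.0201), and Dhcr7 differed by -0.30 (SE 0.095, adjusted p = 0.0426). Lss, at -0.12 (SE 0.12, adjusted p = 0.595), was not called. The calls of Idi1, Fdft1 and Sqle held with any 1 of the 12 arrays left out. That of Dhcr7 was lost for 8 of the 12 (adjusted p = 0.0583 to 0.211), namely 3-day arrays 2, 3 and 4, 2-week controls 1, 3 and 4 and 1-month controls 2 and 4. Cyp51 lost its call without 3-day array 1 (adjusted p = 0.0594) or 4 (adjusted p = 0.0646), and without array 4 only 3 members were called. In the same comparison all 11 microglial markers were called higher, against 6.75% of probes, and of 9 astrocyte markers 3 were called lower and 1 higher.

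**Figure D3:**
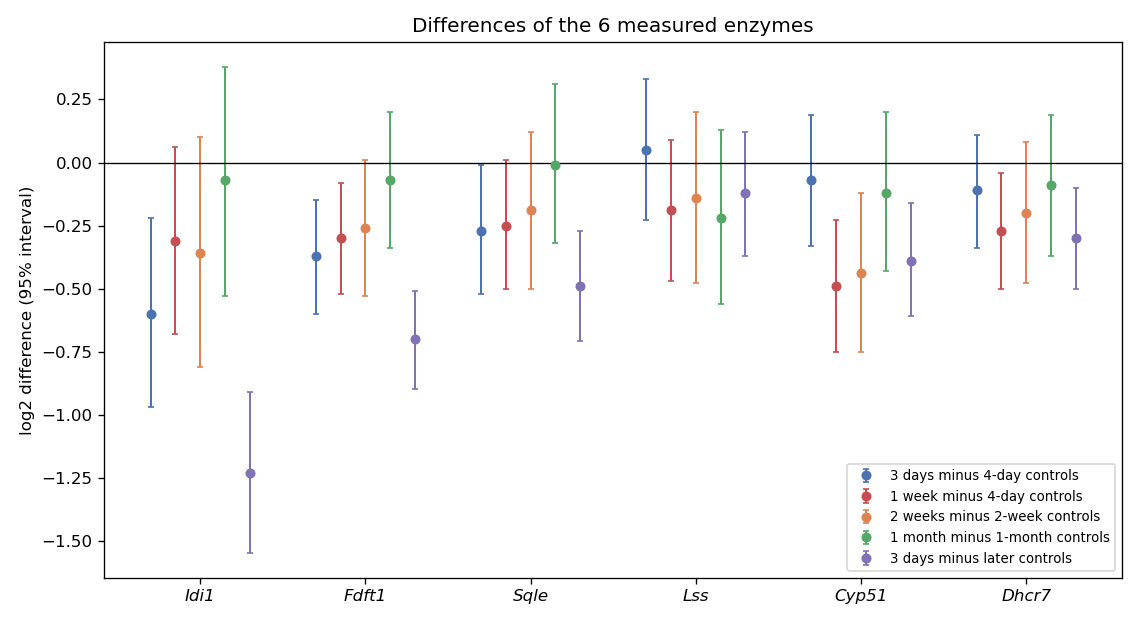
Log2 difference (y axis) of each of the 6 enzymes (x axis) in 5 comparisons, with 95% intervals from the limma fit. The 1-week comparison selected the genes; against the later controls the 3-day difference of Idi1 is -1.23, while at 1 month all intervals include 0.

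The order of the groups was partly shared. The 1-month controls had the highest mean for all 6 members, and the lowest was the 3-day group for Idi1, Fdft1 and Sqle and the 1-week group for Lss, Cyp51 and Dhcr7; the 3-day mean of Lss was above those of the 4-day and 2-week controls. Neighbouring groups in that order overlapped in range in 34 of 36 cases, so most of the order was not resolved; the exceptions were Sqle and Fdft1, whose transected 1-month arrays lay above all 2-week controls. Over the 24 arrays the 15 pairs of members correlated with a median r of 0.634 (0.33 to 0.878), where the median r of a member with all tested probes was between -0.0462 and 0.0138. With group means removed the median of the pairs was 0.255, from -0.271 to 0.693, and Dhcr7 correlated with no other member above -0.00624. These correlations share arrays and normalisation and are descriptions only.

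The genes most like the mean of the members over 24 arrays were, in order, Msmo1 (r = 0.924), Insig1 (0.895), Acat2 (0.882), Sc5d (0.874), Nsdhl (0.863), Gjb6 (0.856), Acot13 (0.853), Abhd1 (0.843), Tmem126b (0.841) and Lrrc49 (0.838). Msmo1, Sc5d and Nsdhl are sterol enzymes, Acat2 is the cytosolic thiolase that starts the pathway, and Insig1 restrains SREBP2; Gjb6 encodes an astrocyte connexin. With group means removed, Msmo1 kept an r of 0.83 and Abhd1 had 0.303.

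Another 10 enzymes of the pathway, of 13 listed, had a named probe. At 1 week all 10 were lower than the 4-day controls, with a median of -0.216 (-0.40 to -0.06), where 50.2% of all tested probes were lower. Lowest were Tm7sf2, the sterol C14-reductase that acts directly after Cyp51, at -0.40 and Acat2 and Nsdhl, both at -0.24; highest was Lbr, the nuclear envelope protein with the same reductase activity, at -0.06. At 3 days 9 of 10 were lower (median -0.165), at 2 weeks 9 of 10 (median -0.176) and at 1 month 8 of 10 (median -0.098), and limma called 0 of them at 2 weeks and 0 at 1 month. Against the later controls 9 of the 10 were called lower at 3 days, against 5.96% of all probes, led by Hsd17b7, a 3-ketosteroid reductase (-0.59, adjusted p = 0.00052), Msmo1, a C4-methyl oxidase (-0.68, adjusted p = 0.00067), Acat2 (-0.49, adjusted p = 0.0021) and Nsdhl, which removes the C4 carboxyl group (-0.52, adjusted p = 0.0029). Together with the selected members, 14 of 16 enzymes were called lower there, and Lss and Lbr were not. Between the later control groups Hsd17b7 was the 1 enzyme of 10 called, higher at 1 month by 0.51 (adjusted p = 0.014), beside 6.18% of all probes.

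**Figure D4:**
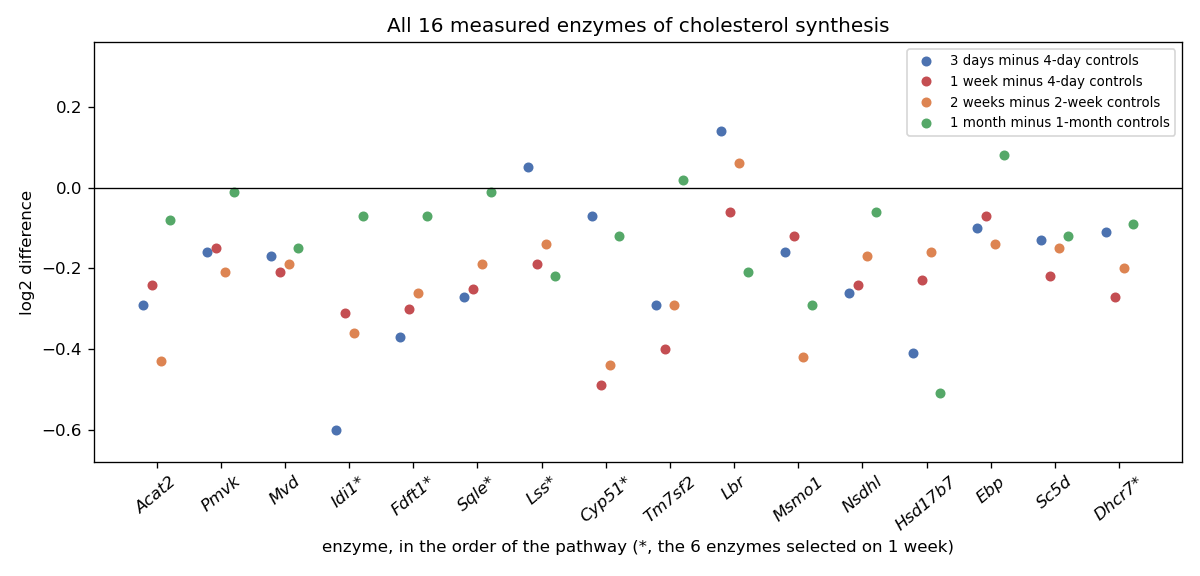
Log2 difference from controls (y axis) for all 16 measured enzymes in the order of the pathway (x axis), in 4 comparisons. The controls of the 1-week comparison were not matched in time since labelling. Asterisks mark the 6 enzymes chosen on the 1-week values. All 16 points of the 1-week comparison are below 0, the lowest being Cyp51 at -0.49.

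The side branches and the regulators were mixed. Of 7 genes that use isoprenoids for prenylation, dolichol or ubiquinone, 4 were lower at 1 week (median -0.13), with Dhdds, a dolichol synthase subunit, at -0.54, Pggt1b at -0.26 and Pdss2 at 0.20, and 0 of 7 were called at 3 days against the later controls. Fnta, a prenyltransferase subunit, was called higher between the later controls (0.27, adjusted p = 0.047), as were 6.18% of all probes.

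Among 8 sterol-sensing genes the transcription factor Srebf2 itself differed by -0.01 at 1 week and -0.12 at 3 days, and its escort Scap by -0.01 and 0.13. Stard4, a sterol carrier protein and SREBP2 target, was lowest at 1 week (-0.36), followed by Insig1 and Insig2 (both -0.08), and the highest, at 0.04, were Mylip and Mbtps1. Against the later controls 2 of 8 were called lower at 3 days, against 5.96% of all probes. They were Insig1 (-0.66, adjusted p = 0.00012) and Stard4 (-0.59, adjusted p = 0.0011). Insig1 had 2 probes, and the brighter was used. Srebf2 was called higher in the 1-month than in the 2-week controls (0.62, adjusted p = 0.013), as were 6.18% of all probes.

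Genes for uptake and export gave other values. Of 6 uptake and transport genes 5 were higher at 1 week (median 0.11), from Npc1 at -0.09 to Npc2 at 0.15, and Npc1, which moves cholesterol out of lysosomes, and its partner Npc2 were called higher at 3 days against the later controls (0.76, adjusted p = 0.0004, and 0.40, adjusted p = 0.0034). Of 12 efflux, storage and turnover genes 7 were higher at 1 week, where Apoc1, an apolipoprotein, stood at 0.72, and Nceh1, a cholesteryl ester hydrolase, was lowest at -0.40. Apoe, the carrier of glial cholesterol, was at 0.55 at 1 week and 0.67 at 2 weeks (adjusted p = 0.79). At 3 days against the later controls Apoc1 was called lower (-1.20, adjusted p = 0.00014), and Ch25h, which makes 25-hydroxycholesterol, and the exporter Abca1 were called higher (0.92, adjusted p = 0.00076, and 0.92, adjusted p = 0.015). Abcg4, a neuronal exporter, was called lower, so that 2 of the 12 were called in each direction. Of all probes, 5.96% were called lower and 6.75% higher in that comparison. Between the later controls Lrp1, a lipoprotein receptor, Abcg4 and Nceh1 were called higher (0.55, adjusted p = 0.017, 0.62, adjusted p = 0.0045, and 0.66, adjusted p = 0.01). The difference between these lists and the enzymes was not tested.

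Fatty acid synthesis genes, many of which answer to the related factor SREBP1, were near their controls at 1 week, with a median of -0.033 over 9 genes, from Elovl6, an elongase, at -0.23 to Fads1, a desaturase, at 0.06. At 3 days 7 of 9 were lower (median -0.242). Against the later controls 4 of 9 were called lower at 3 days, against 5.96% of all probes. They were Scd (-0.64, adjusted p = 3e-05), Acss2 (-0.53, adjusted p = 0.0012), Elovl6 (-0.70, adjusted p = 0.002) and Fads2 (-0.65, adjusted p = 0.0064). Between the later controls all 9 were higher at 1 month and 5 were called higher, against 6.18% of all probes. Among the 5 were the desaturase Scd2 (0.70, adjusted p = 0.0044) and the citrate lyase Acly (0.58, adjusted p = 0.0021).

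Markers of other cells gave the following beside these values. Astrocyte markers (9 of 10 with a probe) had a summed intensity of 7714 to 12406 in the 4-day controls, 8854 to 10905 at 3 days, 10493 to 11589 at 1 week, 7668 to 9953 in the 2-week controls and 9515 to 10344 at 2 weeks. For oligodendrocytes (10 of 11) the sums were 10495 to 13692, 10871 to 14282, 11175 to 13139, 10881 to 12440 and 12221 to 13149 in the same order, and in the 1-month controls they were 13119 to 13884. Neuronal sums stayed between 28146 and 32527 in all groups. Endothelial sums (7 of 9) were 2697 to 3819 in the 4-day controls, 2820 to 3908 at 3 days, 2874 to 3527 at 1 week, 2722 to 3345 in the 2-week and 3463 to 4413 in the 1-month controls.

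Within these lists single markers moved apart at 3 days against the later controls, where 5.96% of all probes were called lower and 6.75% higher. Of the 9 astrocyte markers, Slc7a10, an amino acid transporter, was called lower (-1.0, adjusted p = 7.64e-07), as were the connexin Gjb6 (-0.58, adjusted p = 0.000686) and the glutamate transporter Slc1a2 (-0.35, adjusted p = 0.0152), while Gfap, the intermediate filament of reactive astrocytes, was called higher (2.07, adjusted p = 0.000142). Against the 4-day controls Slc7a10 stood at -0.82 at 3 days and -0.26 at 1 week, and Gjb6 at -0.45 and -0.40. Of 10 oligodendrocyte markers, Ermn (-0.50, adjusted p = 0.000115), Fa2h (-0.34, adjusted p = 0.0132) and Ugt8 (-0.38, adjusted p = 0.0199) were called lower and Cldn11 higher (0.77, adjusted p = 0.000323). Of 7 endothelial markers, the transporter Slco1c1 was called lower (-1.0, adjusted p = 0.000159) and the glucose transporter Slc2a1 higher (0.55, adjusted p = 0.0241). Of 12 neuronal markers, the splicing factor Rbfox3 (-0.57, adjusted p = 0.000203) and the synaptic Syt1 (-0.53, adjusted p = 0.0179) were called lower and the tubulin Tubb3 higher (0.42, adjusted p = 0.000301). In the 1-month against the 2-week controls, limma called higher the astrocytic Slc7a10 (0.41, adjusted p = 0.0252), Slc1a2 (0.40, 0.0253), Gja1 (0.69, 0.0195) and Fgfr3 (0.57, 0.0146). The same call was made for Mag (0.50), Cnp (0.53) and Fa2h (0.40) of oligodendrocytes and the endothelial Slc2a1 (0.74) and Cldn5 (0.30). No marker of these cell types was called lower there. The part of these other cells in the enzyme levels was not tested.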

How the data were processed

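The deposited values were probe intensities on a linear scale, which per the labels the authors obtained with RMA (background correction, quantile normalisation and probe set summary) in GeneSpring; 1 table held all 24 arrays. For arrays, precision depends on how many were run. Values were converted to log2, and the 15% of 27342 probes with the lowest mean were left out (mean log2 under 5.05), which left 23240. Of all probes, 15097 had 1 symbol in the platform annotation, 323 had several and 11922 had none.

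A linear model over the 7 groups was estimated by limma 3.58.1 (R 4.3.3) and followed by Benjamini-Hochberg adjustment over all tested probes. It was tested on simulated data with the same spread on every array, and no result here rests on that test. In its genome-wide analysis the study used a 2-way analysis of variance with the same adjustment, and it tested its custom gene lists by permutation. Here 7 group means replaced the analysis of variance because control and injury times differ in the labels. The members and the gene lists were chosen with earlier results of these data known. Comparisons that use the 4-day controls or the 1-week arrays share arrays with that choice, so members carry no test there and only the share of all probes called is given. Named genes were all members, up to 4 called genes of each list with the smallest p, the extremes at 1 week, the brightest markers and the 10 genes most correlated with the members; a few others were named after their values were seen. Separate animals gave the replicates, per the study's methods. Alternatives were other filters, moderation, weights, normalisation, controls and tests, a replicate block, and each array left out.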

Additional observations from a re-analysis of the deposited data

Results flagged for a closer look

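Among 30 combinations of a member and a group of 4 arrays, 3 had an array whose gap to the others exceeded Dixon's 95% limit, and chance alone flags about 1 in 20 such groups. Cyp51 read 8.88 on 1-week array 5, below 9.31, 9.37 and 9.39. Cyp51 also read 10.34 in 1-month control 1, above 9.99, 10.01 and 10.01. Sqle read 10.11 in 1-month control 4, above 9.75, 9.78 and 9.78.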

How the results depend on the processing

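Each setting was fitted on all probes. With all 12 controls pooled, the median difference of the members was -0.455 at 1 week, -0.349 at 3 days and 0.089 at 1 month. At 1 month Sqle (0.20), Idi1 (0.14), Fdft1 (0.21), Cyp51 (0.04) and Dhcr7 (0.01) turned positive. Pooling adds later controls, on average higher, at 3 days and 1 week. At 1 month it adds earlier controls, on average lower. With 2-week in place of 4-day controls the 1-week median was -0.434. Sqle at 1 month was also positive with array quality weights (0.01), and Sqle and Idi1 with the replicate block (0.04 and 0.03). Between the later controls, Idi1 turned negative with array quality weights (-0.02) and cyclic loess (-0.13), and Cyp51 with cyclic loess (-0.02).

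The replicate numbers did not pair the animals: arrays with the same number correlated at 0.0215 on average after removal of group means, other arrays at -0.00631. With the number as a block the members' medians were -0.219 at 1 week, -0.27 at 2 weeks and -0.437 at 3 days against the later controls, where 5 members were called. Between the later controls 1 member, Fdft1, was called with a filter at the median, robust moderation, array quality weights, only the groups compared, the methods' t-test and the replicate block, and 0 in the remaining settings. Probes called there numbered 2366, 5404 with array quality weights and 1117 with cyclic loess, and 614 without 2-week control 3, 978 without 1-month control 4 and 1185, 1210 and 1297 without 2-week control 1, 1-month control 3 and 1-month control 2. Probes called at 2 weeks numbered 0, or 37 with array quality weights; for the mean of both late differences they numbered 0, or 27 with weights and 8 with only the groups compared. Dhcr7 at 3 days against the later controls was not called with array quality weights (adjusted p = 0.0554) or cyclic loess (0.0529).

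With each array left out in turn, the median ranged from -0.332 to -0.232 at 1 week, from -0.24 to -0.135 at 3 days, from -0.404 to -0.165 at 2 weeks, from -0.17 to 0.014 at 1 month, from -0.271 to -0.11 over both late times, from -0.48 to -0.401 at 3 days against the later controls (3 to 5 members called) and from 0.117 to 0.219 between those controls. Lss at 2 weeks ranged from -0.38 to 0.11, the latter without transected array 3. At 1 month the ranges were -0.04 to 0.08 (Sqle), -0.21 to 0.06 (Idi1), -0.19 to 0.05 (Fdft1) and -0.25 to 0.02 (Cyp51), and leaving out transected array 1 turned all 4 positive. Idi1 between the later controls ranged from -0.14 to 0.14. With 4-day controls 1 and 2 only, a setting chosen after seeing the data, the medians were -0.178 at 1 week and -0.202 at 3 days. The mean over several probes of a member was not run, since each had 1 probe. With 2 transected animals at 2 weeks and at 1 month, the standard errors of the members were 0.13 to 0.22 there.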
